A study of Mus musculus with 4 samples.

Results

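The Rab GTPases of peritoneal macrophages were examined in RNA sequencing counts from mice with and without myeloid Dnmt1. They were taken as every row of the deposited gene table whose symbol is Rab followed by a number and at most a letter and a further digit, which gave 52 genes of 13834. Both groups carried the floxed Dnmt1 allele. The control group, Dnmt1fl/fl, kept myeloid Dnmt1, and the study's text does not state its Cre status. The other group, Dnmt1KO, expressed Cre recombinase under the LysM promoter. That promoter is active in monocytes, macrophages and neutrophils rather than in macrophages alone. Each group had 2 samples, from mice of the same stated age, and macrophages were washed from the abdominal cavity after an injection of thioglycolate broth, which draws leukocytes into it. The labels name no treatment other than isolation and do not say whether a sample was 1 animal or a pool, so p-values measure the spread between these samples only.

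Rab proteins are small GTPases that switch between a GDP-bound form in the cytosol and a GTP-bound form on membranes, where they recruit the tethers, motors and lipid kinases that move vesicles. Each membrane of the cell carries its own members. Rab5 marks early endosomes, Rab4 and Rab11 direct cargo back to the cell surface, Rab7 marks late endosomes and the lysosome side of phagosomes, and Rab3 and Rab27 work in regulated secretion. In macrophages the exchange of Rab5 for Rab7 on a phagosome is the textbook step of its maturation. The 52 genes were grouped by the site for which each protein is best known, into 7 early endosome, 8 recycling, 10 late endosome and lysosome, 10 secretory, 13 ER and Golgi and 4 other members. Several of these proteins act at more than 1 site.

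Depth ran from 20228071 to 24198943 counts per sample. Levels are given as CPM, counts per 1000000 after TMM scaling between samples, where 3 counts correspond to 0.120 to 0.151 CPM, a floor that covers counting error only. Dnmt1 itself stood at 86.6 and 67.0 CPM in the Dnmt1fl/fl samples and at 37.0 and 42.7 CPM in the Dnmt1KO samples, so transcript remained in both Dnmt1KO samples. Its log2 fold change was -0.95 (standard error 0.24, unadjusted p = 0.00839 and adjusted p = 1.00 in the edgeR quasi-likelihood fit to all tested genes). The genotypes did not overlap for Dnmt1. Of 8 macrophage markers, 8 were in the table, and without lysozyme gene Lyz2, the locus that carries the LysM-Cre, they summed to 5741 to 6555 CPM per sample. With Lyz2 the sum was 35511 and 34589 CPM in Dnmt1fl/fl and 17906 and 21485 CPM in Dnmt1KO. Neutrophil markers, of which 7 of 9 were in the table, summed to 57.0 and 182 CPM in Dnmt1fl/fl and to 713 and 58.5 CPM in Dnmt1KO replicates 1 and 2, and B cell markers (5 of 5) to 122 and 197 against 40.1 and 216 CPM. In bulk RNA, fewer cells of a type and less RNA per cell cannot be told apart.

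Dnmt1KO replicate 1 stood apart from the other samples. It held the highest value of the 4 samples for 38.8% and the lowest for 39.6% of the 12542 genes tested, where each of the other samples was highest for 15.6% to 26.6%. Among the 48 Rab genes that passed the filter on low counts it was highest for 27, or 56.2%, and lowest for 11, or 22.9%. Dnmt1KO replicate 2 was highest for 6 Rab genes, and Dnmt1fl/fl replicates 1 and 2 for 7 and 8. These counts depend on the scaling. With library totals alone Dnmt1KO replicate 1 was highest for 21 Rab genes and lowest for 18, where it was highest for 26.7% and lowest for 51.5% of all genes. Summed Rab levels were 4362 and 4460 CPM in Dnmt1fl/fl and 5202 and 4290 CPM in Dnmt1KO with TMM, but 4426 and 4623 against 4733 and 4477 per 1000000 counts without it. Dnmt1KO replicate 1 also had the highest neutrophil and the lowest B cell marker sum, and the part of these cells in the Rab values was not tested.

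Peritoneal macrophages expressed the Rab family over a wide range. Divided by the length of the longest annotated transcript, the 48 tested members spanned 3633-fold, from 328 CPM per kilobase for Rab7 to 0.0904 for Rab30, a Golgi member. The median member was at 22.2 CPM per kilobase and the median of 12391 tested genes with a known length at 6.91, and 33 of the 48 members were above the latter. Rab7 stood in the 98.5th percentile of these genes. It was followed by Rab5c at 177, Rab1a at 117, Rab1b at 83.3 and Rab8b at 69.7 CPM per kilobase, and these 5 made up 47.5% of the family's summed level per kilobase. The ranges over the 4 samples of Rab7, 272 to 434 CPM per kilobase, and of Rab5c, 158 to 195, did not touch. Over the whole order, 41 of the 47 pairs of neighbours had overlapping ranges, so the order within most of the list is not resolved. The isoform used in these cells is not known, and a shorter one would raise a gene's level per kilobase.

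**Figure D1:**
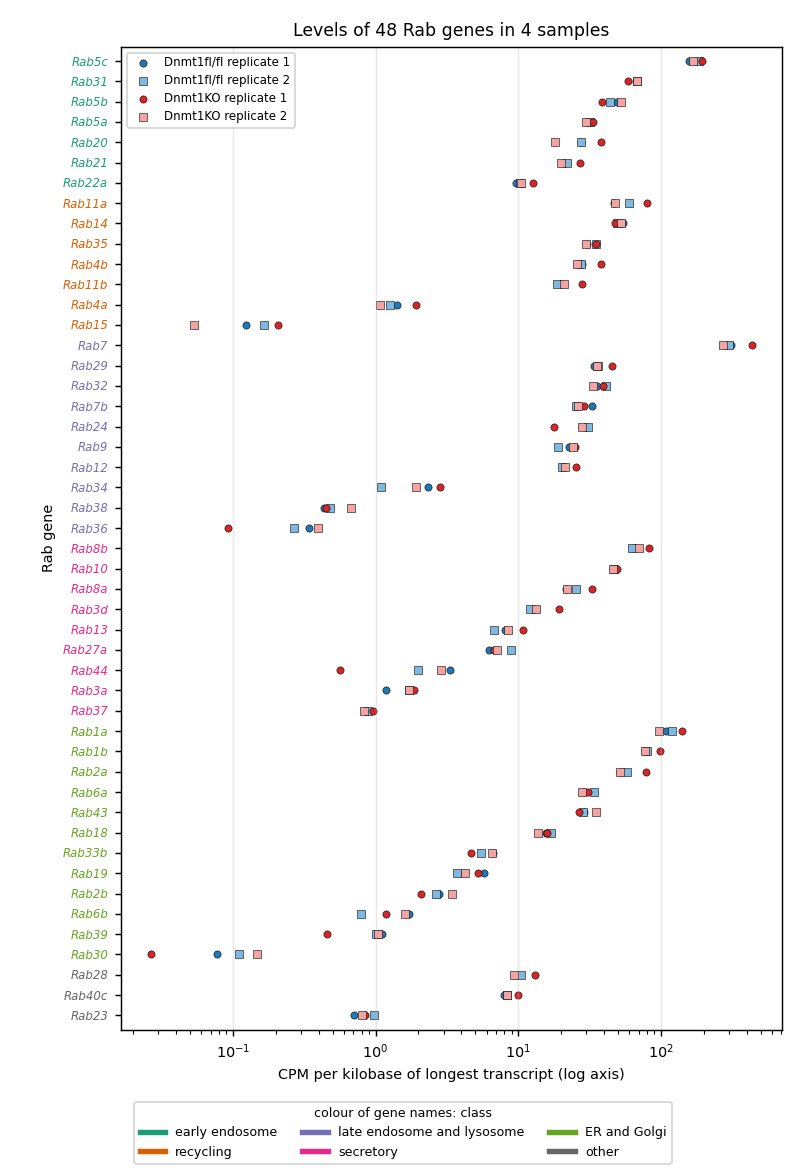
Level of each of the 48 tested Rab genes in CPM per kilobase of the longest transcript (log axis), 1 point per sample, with gene names coloured by class. Rab7 lies highest at 272 to 434, and the points of Dnmt1KO replicate 1 lie to the right of the other 3 for 27 genes.

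The remaining 4 members did not pass the filter. Rab42 had 3 to 6 counts per sample, Rab27b 2 to 5, Rab33a 3 to 8 and Rab25, an epithelial recycling member, 1 to 3. Each is at or near the floor of 3 counts, and no difference between genotypes could be detected at this depth. Every row of the table is above 0 in all samples, so a Rab gene silent in any sample would not be among the 52.

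In the comparison of Dnmt1KO with Dnmt1fl/fl macrophages, 0 of the 48 Rab genes passed at 0.05 after adjustment in the edgeR quasi-likelihood test, and 0 passed at 0.05 before it. Across all 12542 genes 0% and 0.279% did so, the latter being 35 genes. DESeq2 and limma-voom also called 0 Rab genes by either measure. The lowest unadjusted edgeR p of a member was 0.191, for Rab3d. Log2 fold changes ran from -0.61 to 0.47 with standard errors of 0.21 to 0.85, 31 above 0 and 17 below, with a median of 0.08 against 0.00 for all genes. The median of the members was -0.02 without Dnmt1KO replicate 1 and 0.17 without Dnmt1KO replicate 2. In 9 members, or 18.8%, both Dnmt1KO samples lay on the same side of both Dnmt1fl/fl samples, near the share of 16.7% of all tested genes. Dnmt1KO was higher in 8 of the 9, where 8.14% of all genes had that order, and lower in 1, where 8.56% did. This split moved with the scaling, to 7 higher and 3 lower without TMM (5.94% and 10.6% of all genes) and to 8 higher and 0 lower with the length correction (11.1% and 7.56%). Under the length correction Rab9, Rab11b, Rab22a and Rab24 overlapped, and Rab1b, Rab29 and Rab43 did not. With 2 samples per group an exact two-sided permutation test of 1 gene cannot give a p under 0.333.

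The fits that left out 1 sample changed these counts. In them a group keeps a lone sample, which is assumed to vary like the pair of the other group. Without Dnmt1KO replicate 2, which leaves Dnmt1KO replicate 1 against the controls, 674 of all genes, or 5.37%, had an adjusted edgeR p under 0.05, and among Rab genes only Rab44 did. An unadjusted p under 0.05 was then reached by 11 Rab genes, 8 higher and 3 lower, where 27.3% of all genes reached it. Without Dnmt1KO replicate 1 there were 0 genes by the adjusted p and 1 Rab gene, Rab20, by the unadjusted p, where 2.68% of all genes reached it. Leaving out Dnmt1fl/fl replicates 1 and 2 gave 2 and 8 genes by the adjusted p, none of them a Rab gene. Non-overlapping genotypes, easier to reach with 3 samples, were found in 20, 26, 30 and 38 of the 48 members without Dnmt1fl/fl replicates 1 and 2 and Dnmt1KO replicates 1 and 2, where 39.6%, 46.4%, 64.6% and 82.9% of all genes had them.

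**Figure D2:**
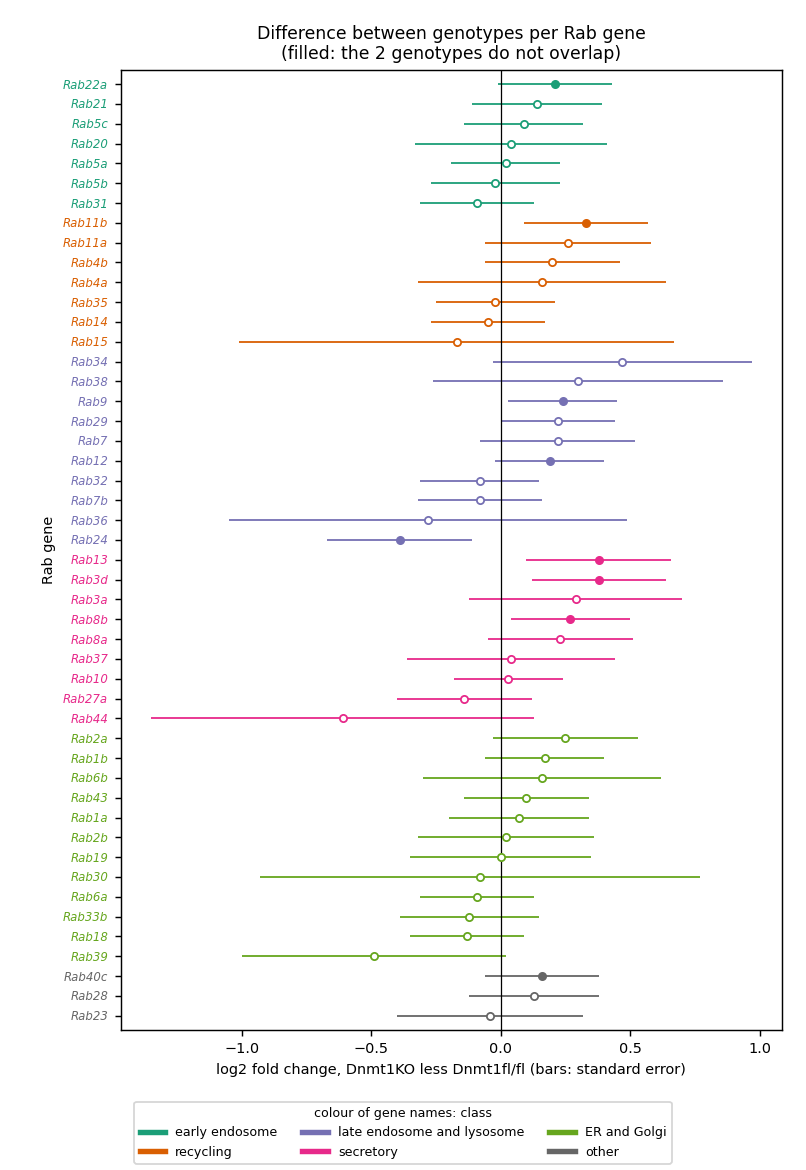
Log2 fold change of each tested Rab gene between Dnmt1KO and Dnmt1fl/fl (point) with its standard error (bar), ordered within 6 classes. Filled points mark the 9 genes whose genotypes do not overlap; 8 of these lie right of 0 and Rab24 lies left of it.

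Among early endosome members, the Rab5 paralogues, which drive fusion of endocytic vesicles and early endosomes, had similar levels in both genotypes. Rab5c was at 311 and 363 CPM in Dnmt1fl/fl and 384 and 331 CPM in Dnmt1KO, Rab5b at 156 and 139 against 123 and 168, and Rab5a at 98.1 and 103 against 108 and 95.8. The genotypes overlapped for all 3, and the log2 fold changes were 0.09, -0.02 and 0.02, each smaller than its standard error of 0.21 to 0.25. Per kilobase Rab5c was the first of the 3 at 177, and Rab5b (46.1) and Rab5a (31.4) followed with ranges that did not meet, 38.7 to 52.9 and 29.7 to 33.5.

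Rab31, a Rab5 relative of the trans-Golgi network and early endosomes, was at 232 and 236 CPM in Dnmt1fl/fl and at 205 and 235 in Dnmt1KO. Rab22a, which sorts cargo from early endosomes to recycling tubules, was at 69.6 and 74.1 CPM in Dnmt1fl/fl and 90.7 and 75.0 in Dnmt1KO. It was the only early endosome member whose genotypes did not overlap, with a log2 fold change of 0.21 (standard error 0.22), and its Dnmt1KO replicate 2 was within 1 CPM of a control. Rab20, a member found on macrophage phagosomes, was near level in the controls at 38.2 and 38.1 CPM and split the Dnmt1KO samples, at 53.4 and 25.3. Its log2 fold change was 0.04 over all samples, 0.48 without Dnmt1KO replicate 2 and -0.59 without Dnmt1KO replicate 1 (adjusted p = 0.125 and adjusted p = 1.00 from edgeR).

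A short sequence was looked for at the promoters. The hexamer CACGTG, the E-box core bound by basic helix-loop-helix factors such as TFEB, USF and MYC, was searched in the 250 bases before each RefSeq start (GRCm38.p6), where the palindrome reads the same on both strands. Of the 52 members, 42 matched the promoter table, with 54 promoters. CACGTG was present in 5 of the 54, or 9.26%, near the 8.35% of the promoters of tested genes and the 6.02% of all 32851 promoters. It was found in 3 of the 7 early endosome promoters, those of Rab5a, Rab20 and Rab21, in 1 of 2 listed promoters each of Rab27a and Rab23, and in 0 recycling, late endosome and ER and Golgi promoters. The ETS-type letters CCGGAAG, searched on both strands, were in 5.56% of Rab promoters, 6.91% of all promoters and 13.5% of those of tested genes. A match is a description of the letters and not a binding site. Of the listed windows, 26 of 54 reach more than 30 bases into the gene as GENCODE M21 draws it, that of Rab20 among them, and only windows with less are printed. Those of Rab5a and Rab21 follow with CACGTG in capitals, read 5′ to 3′ on the gene's strand up to the base before the start. Rab5a holds it at 235 and 95 bases before the start, counted from the motif's first base, and Rab21 holds it at 30 bases before its own.
Rab5a, chr17:53478984-53479233, + strand: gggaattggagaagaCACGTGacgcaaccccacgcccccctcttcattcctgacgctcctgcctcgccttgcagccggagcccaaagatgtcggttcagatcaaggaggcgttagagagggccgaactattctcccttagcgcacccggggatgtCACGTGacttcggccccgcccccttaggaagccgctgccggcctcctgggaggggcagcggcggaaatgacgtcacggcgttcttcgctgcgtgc
Rab21, chr10:115315592-115315841, - strand: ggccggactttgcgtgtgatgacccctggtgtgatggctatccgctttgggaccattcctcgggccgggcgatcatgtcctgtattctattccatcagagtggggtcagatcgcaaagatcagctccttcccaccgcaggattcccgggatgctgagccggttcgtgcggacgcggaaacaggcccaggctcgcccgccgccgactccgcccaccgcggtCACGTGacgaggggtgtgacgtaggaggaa

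Rab21, which follows integrins through endocytosis, was at 95.9 and 102 CPM in Dnmt1fl/fl and at 125 and 92.2 CPM in Dnmt1KO. Like Rab20 it was highest in Dnmt1KO replicate 1 and lowest in Dnmt1KO replicate 2. Rab5a had the same order of extremes over a smaller range. This order was not particular to holders of CACGTG. Rab7, Rab1a, Rab4b and Rab28, without CACGTG in a listed promoter, also had it. Rab23 and Rab27a, which hold CACGTG, were highest in Dnmt1fl/fl replicate 2 and lowest in Dnmt1fl/fl replicate 1.

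Recycling members had the widest median gap within the Dnmt1KO pair on the TMM scale. Rab11a, which directs slow recycling through the perinuclear compartment, was at 110 and 139 CPM in Dnmt1fl/fl and at 186 and 112 CPM in Dnmt1KO. Its paralogue Rab11b was at 122 and 115 CPM in Dnmt1fl/fl and at 170 and 128 CPM in Dnmt1KO. The genotypes overlapped for Rab11a and not for Rab11b, whose log2 fold change was 0.33 (standard error 0.24), with 0.11 without Dnmt1KO replicate 1. Rab11a lay on both sides of 0 in such fits, at -0.15 without Dnmt1KO replicate 1 and 0.58 without Dnmt1KO replicate 2.

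Rab14, which carries cargo between the trans-Golgi network and endosomes, was the most abundant recycling member in CPM, at 271 and 248 in Dnmt1fl/fl and 240 and 263 in Dnmt1KO. Rab35, a rapid recycling member at the plasma membrane, ran from 84.4 to 99.4 CPM over the 4 samples, with both genotypes spanning almost the same range. Of the paralogues that serve fast recycling from early endosomes, Rab4b was at 35.3 to 52.5 CPM and Rab4a at 1.53 to 2.73 CPM, or 29.9 and 1.42 CPM per kilobase. Rab15 stayed under 1 CPM in every sample. Of the 7 tested recycling members, 6 were higher in Dnmt1KO replicate 1 than in replicate 2, where 49.3% of all tested genes were. Rab15, at 13 and 4 counts, was 1 of the 6. The median log2 gap of the 7 was 0.57 between that pair and 0.03 between the Dnmt1fl/fl pair. Without TMM 6 of 7 were still higher, where 38.3% of all genes were, with a median gap of 0.38.

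Rab7 led the late endosome and lysosome class and the family. This GTPase, encoded at chr6:87999106-88045270 (minus strand, GENCODE M21 on GRCm38), brings late endosomes and phagosomes to fusion with lysosomes. It was at 668 and 644 CPM in Dnmt1fl/fl and at 937 and 586 CPM in Dnmt1KO, so the Dnmt1KO samples were the highest and the lowest of the 4. The log2 fold change was 0.22 (standard error 0.30, unadjusted p = 0.503 from edgeR), with -0.16 without Dnmt1KO replicate 1 and 0.52 without Dnmt1KO replicate 2. Rab7 alone held 15.3% and 14.4% of Rab counts in Dnmt1fl/fl and 18.0% and 13.7% in Dnmt1KO. Rab7b, a distinct protein of endosome-to-Golgi transport, was at 148 and 115 against 130 and 118 CPM.

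Rab24, a member linked to autophagosome clearance, was the 1 tested Rab gene with both Dnmt1KO samples below both controls on the TMM scale. Without TMM Rab18 and Rab32 also had that order, and with the length correction no Rab gene had it. It was at 53.2 and 55.3 CPM in Dnmt1fl/fl and at 32.1 and 50.8 CPM in Dnmt1KO, with a log2 fold change of -0.39 (standard error 0.28, unadjusted p = 0.216 from edgeR). Without Dnmt1KO replicate 1 it was -0.10, and without Dnmt1KO replicate 2 it was -0.76 (adjusted p = 0.0539 from edgeR). Rab24 lies on chromosome 13 from 55319743 to 55321946 (minus strand, GENCODE M21 on GRCm38) and overlaps Prelid1 on the plus strand, with 41.4% of its 100-base stretches in a Prelid1 transcript. Prelid1 was at 247 and 320 CPM in Dnmt1fl/fl and at 484 and 247 CPM in Dnmt1KO, and the strand setting of the counting is not given in the sources used here, so reads of the pair may not be told apart.

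Rab9, which returns mannose 6-phosphate receptors from late endosomes to the Golgi, was at 32.6 and 27.5 CPM in Dnmt1fl/fl and at 36.1 and 34.9 CPM in Dnmt1KO. Here the Dnmt1KO samples lay closer to each other than the controls did. The log2 fold change of 0.24 (standard error 0.21) was 0.21 and 0.26 without Dnmt1KO replicates 1 and 2. The genotypes of Rab9 did not overlap on the TMM scale but did without TMM and with the length correction. Rab12, which sends recycling receptors to lysosomes, was at 42.9 and 41.9 CPM against 52.5 and 44.0. Rab32 and Rab38, a pair that serves lysosome-related organelles, differed in level, with Rab32 at 72.1 to 88.9 CPM and Rab38 at 0.682 to 1.06 CPM. Rab29, the LRRK2 partner, lies on chromosome 1 from 131867224 to 131872887 and was at 41.5 and 44.3 against 55.9 and 44.0 CPM. Rab34 and Rab36 were low, at 1.83 to 4.75 and 0.303 to 1.31 CPM.

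Of the 9 tested secretory members 3 had non-overlapping genotypes, all with Dnmt1KO higher, where 8.14% of all genes had that order, and none of the 9 passed the test. Rab3d, encoded at chr9:21907491-21918192 on the minus strand, sits on secretory granules. It was at 50.2 and 47.3 CPM in Dnmt1fl/fl and at 75.4 and 51.7 CPM in Dnmt1KO, with a log2 fold change of 0.38 (standard error 0.26, unadjusted p = 0.191 from edgeR). It was 0.08 without Dnmt1KO replicate 1, and with that sample alone against the controls it was 0.63 (adjusted p = 0.0737 from edgeR). Rab13, which acts at cell junctions and in delivery to the leading edge, was at 11.4 and 9.57 CPM in Dnmt1fl/fl and at 15.3 and 12 CPM in Dnmt1KO. Its log2 fold change was 0.38 (standard error 0.28), and 0.20 without Dnmt1KO replicate 1. Rab8b, an exocytic member, was at 301 and 297 CPM in Dnmt1fl/fl and at 390 and 333 CPM in Dnmt1KO, a log2 fold change of 0.27 (standard error 0.23), and 0.15 without Dnmt1KO replicate 1.

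The paralogue Rab8a was at 98.4 and 116 CPM against 150 and 100, with overlapping genotypes. Rab10, which carries vesicles from the Golgi and recycling endosomes to the surface, was the steadiest of the abundant members, at 162 and 165 CPM in Dnmt1fl/fl and 173 and 162 in Dnmt1KO. Rab27a, which docks granules and multivesicular endosomes at the plasma membrane, was at 19.8 and 28.4 CPM against 21.4 and 22.5, and Rab27b stayed at 0.0974 to 0.212 CPM. Rab3a was at 1.85 and 2.67 against 2.88 and 2.67 CPM, and Rab37 at 2.16 to 2.52 CPM.

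Rab44, a large Rab with a calcium-binding region that is known from granule-bearing leukocytes and lies at chr17:29114145-29148980 on the plus strand, was at 13.7 and 8.17 CPM in Dnmt1fl/fl and at 2.32 and 11.9 CPM in Dnmt1KO. Only Dnmt1KO replicate 1 was low, and the log2 fold change of -0.61 (standard error 0.74) became -2.23 with that sample alone against the controls (adjusted p = 0.0278 from edgeR). The 7 mast cell markers summed to 13 and 10.9 CPM in Dnmt1fl/fl and to 10.5 and 9.32 CPM in Dnmt1KO, with 3 of them under 1 CPM in every sample. Neutrophil markers, at 57.0 and 182 CPM in Dnmt1fl/fl and 713 and 58.5 CPM in Dnmt1KO, were highest in the sample where Rab44 was lowest. Dendritic cell markers summed to 35.5 and 32.1 CPM in Dnmt1fl/fl and to 18.4 and 43.4 CPM in Dnmt1KO. They were lowest in the same sample as Rab44 and as the B cell markers, where 39.6% of all tested genes were lowest. The part of these cells in the Rab44 values was not tested.

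ER and Golgi members, which serve the first steps of secretion, did not separate the genotypes on the TMM scale. Rab1a and Rab1b, which start transport from ER to Golgi, were at 308 and 336 against 401 and 276 CPM and at 147 and 153 against 189 and 148 CPM. Rab43 was at 133 and 131 against 122 and 161 CPM, Rab2a at 110 and 123 against 167 and 111 CPM, and Rab18, an ER and lipid droplet member, at 102 and 111 against 104 and 90.4 CPM. On that scale all 12 tested members had overlapping genotypes, whereas Rab18 did not overlap without TMM nor Rab1b and Rab43 with the length correction. In all 12 on the TMM scale the Dnmt1KO pair differed by more than the genotype means, as it did for 84.1% of all tested genes. Rab30 and Rab39, both low, were lowest in Dnmt1KO replicate 1, with Rab39 at 1.36 CPM there and 2.99 to 3.31 CPM elsewhere. Among other members, Rab40c was at 23.2 and 24.2 against 28.7 and 24.4 CPM without overlap, Rab28 at 28.9 and 30.5 against 38.1 and 27.1 CPM, and Rab23, a member of Hedgehog signalling, at 3.12 to 4.31 CPM.

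For most members, as for most genes, the spread within the Dnmt1KO pair exceeded the difference between genotypes. In 43 of the 48 members the 2 Dnmt1KO samples differed by more than the genotype means, and in 22 of 48 the Dnmt1fl/fl samples did. The shares of 89.6% and 45.8% compare with 84.1% and 57.5% of all tested genes. A gap between 2 single samples varies more than one between 2 means, so the counts are read only beside those of all genes. The median absolute log2 gap of a member was 0.40 within Dnmt1KO, 0.15 within Dnmt1fl/fl and 0.16 between the means, where all tested genes had 0.48, 0.21 and 0.17. Rab genes lay higher in Dnmt1KO replicate 1 than in replicate 2 in 34 of 48 cases, where 49.3% of all tested genes did. Their median log2 gap was 0.23 where all genes had -0.01. By class the median gap was 0.57 for recycling, 0.22 for early endosome, 0.22 for secretory, 0.19 for late endosome and lysosome and -0.14 for ER and Golgi members. With library totals alone, tried after seeing the data, 26 of 48 members were higher in replicate 1, where 38.3% of all genes were. The median gap of the members was 0.03 where all genes had -0.21. The class medians were then 0.38 for recycling, 0.02 for early endosome, 0.03 for secretory, -0.01 for late endosome and lysosome and -0.34 for ER and Golgi members.

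**Figure D3:**
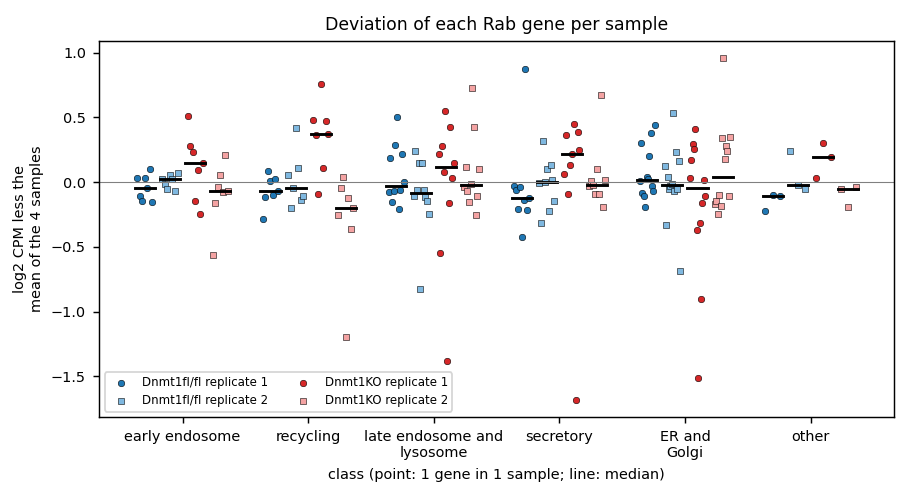
Log2 CPM of each tested Rab gene in each sample less its mean over the 4 samples, by class, with lines at class medians. Recycling members of Dnmt1KO replicate 1 sit mostly above 0 and those of Dnmt1KO replicate 2 mostly below, a median log2 gap of 0.57.

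The 4 trafficking classes kept similar shares of the family's counts. Rab genes summed to 89534 and 111864 counts in Dnmt1fl/fl and to 103026 and 101240 counts in Dnmt1KO. Early endosome members held 22.9% and 23.6% of these in Dnmt1fl/fl and 21.0% and 23.8% in Dnmt1KO. Late endosome and lysosome members held 24.5% and 22.9% against 25.7% and 22.3%, so Dnmt1KO replicate 1 had the lowest early and the highest late share. Recycling members held 14.4% in both Dnmt1fl/fl samples and 14.4% and 14.6% in Dnmt1KO. Secretory members held 15.1% and 15.2% in Dnmt1fl/fl and 16% and 16.3% in Dnmt1KO. This was the 1 of these 4 classes in which both Dnmt1KO samples exceeded both controls. Rab8b alone gave 6168 and 7451 of the 13555 and 16974 secretory counts in Dnmt1fl/fl. In Dnmt1KO it gave 7727 and 7850 of 16499 and 16491, and the part of Rab8b in the difference was not tested. Wilson 95% intervals on single shares were at most 0.563 points wide and cover counting error only, and no test was run on shares. With Rab8a, Rab8b, Rab10 and Rab13 counted as recycling members, a placing that their roles also allow, the secretory class held 2.01% and 2.0% against 2.01% and 2.13%, and recycling held 27.6% in both controls against 28.4% and 28.7%.

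**Figure D4:**
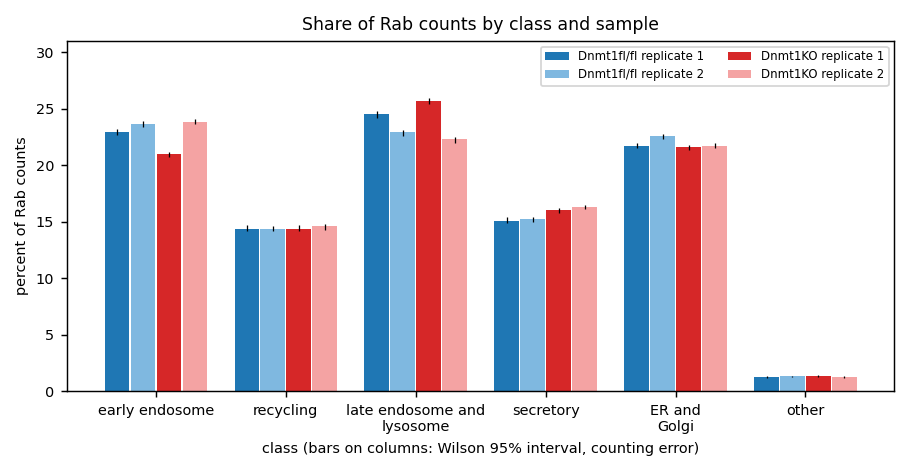
Percent of all Rab counts held by each class in each sample (columns start at 0, bars give the Wilson 95% interval of counting error). Early and late endosome classes each hold 21.0% to 25.7%. Secretory members, with Rab8b the largest part, are above the controls in both Dnmt1KO samples.

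CG, the dinucleotide that DNA methyltransferases modify, was about as frequent in promoters of the family as in those of all tested genes. No methylation was measured here. The 250 bases before the start held a median of 17.0 CG over the 54 Rab promoters, 15 over promoters of tested genes and 6 over all promoters, and at least 10 CG were present in 72.2%, 69.4% and 37.8% of them. Of the 39 tested members with a listed promoter, 34 had at least 10 CG in 1 of them, with a median level of 26.0 CPM per kilobase and a range from 0.137 to 328. The other 5, Rab9, Rab11b, Rab19, Rab29 and Rab32, ranged from 4.74 to 37.9 CPM per kilobase around a median of 22.6, inside the range of the first group. Genotypes did not overlap for 7 of the 34 and 2 of the 5, where 16.7% of all tested genes did not, and no test compared the 2 sets. In 4 windows given here, CG is in capitals. Among tested members with 1 listed promoter and a window clear of the gene, Rab9 had the fewest (7) and Rab10 the most (34), at levels of 22.6 and 47.2 CPM per kilobase. Rab3d, which with Rab13 had the highest log2 fold change (0.38) among Rab genes with non-overlapping genotypes, held 18 CG. Rab24, the only one of these Rab genes that was lower, held 27.
Rab9, chrX:166479868-166480117, - strand: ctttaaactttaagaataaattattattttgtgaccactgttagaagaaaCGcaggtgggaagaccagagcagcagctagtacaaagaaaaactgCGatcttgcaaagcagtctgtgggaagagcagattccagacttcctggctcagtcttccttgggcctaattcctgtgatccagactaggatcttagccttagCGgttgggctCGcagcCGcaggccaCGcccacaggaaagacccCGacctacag
Rab10, chr12:3309970-3310219, - strand: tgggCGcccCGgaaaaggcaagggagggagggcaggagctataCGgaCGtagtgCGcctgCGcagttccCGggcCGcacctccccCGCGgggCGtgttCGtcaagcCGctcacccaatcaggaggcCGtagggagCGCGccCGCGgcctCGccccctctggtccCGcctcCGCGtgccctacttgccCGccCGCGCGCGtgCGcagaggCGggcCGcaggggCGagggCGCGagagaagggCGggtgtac
Rab3d, chr9:21918184-21918433, - strand: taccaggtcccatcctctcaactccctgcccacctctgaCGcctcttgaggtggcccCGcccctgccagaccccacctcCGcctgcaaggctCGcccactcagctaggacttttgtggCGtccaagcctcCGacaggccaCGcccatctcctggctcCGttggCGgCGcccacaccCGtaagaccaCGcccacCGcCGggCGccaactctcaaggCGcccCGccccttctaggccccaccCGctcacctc
Rab24, chr13:55321981-55322230, - strand: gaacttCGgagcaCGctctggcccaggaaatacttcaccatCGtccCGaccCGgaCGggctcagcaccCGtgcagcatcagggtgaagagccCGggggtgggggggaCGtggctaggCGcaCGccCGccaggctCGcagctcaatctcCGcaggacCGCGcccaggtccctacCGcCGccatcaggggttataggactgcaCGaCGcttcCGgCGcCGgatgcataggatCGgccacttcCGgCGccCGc

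**Figure D5:**
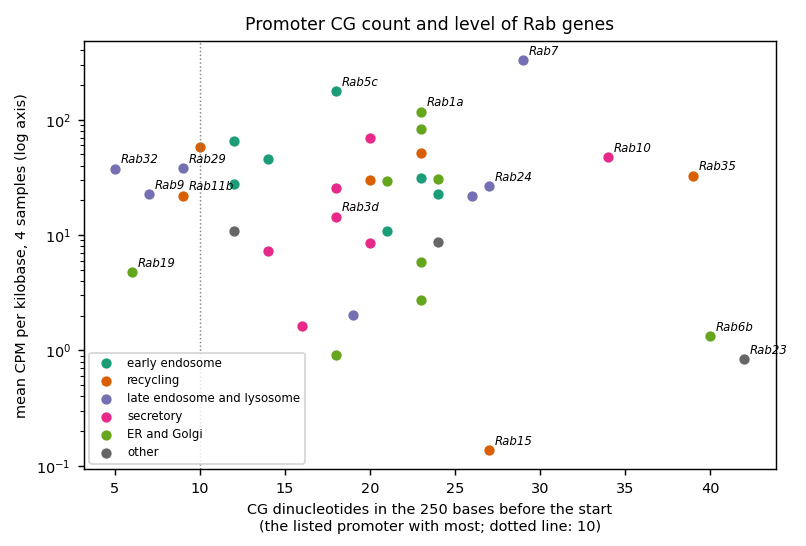
Mean level of each tested Rab gene in CPM per kilobase (log axis) against the number of CG in the 250 bases before its start, for 39 genes (the listed promoter with most CG), with the dotted line at 10. Rab32 with 5 CG lies at 37.5 and Rab6b with 40 at 1.33, and genes under and over 10 CG overlap in level.

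The partners of the Rab cycle were counted from lists of genes that load, activate, switch off or bind Rab proteins. Of 130 such genes found among the deposited rows, 126 were tested. In edgeR 0 of them passed at 0.05 with adjustment and 0 without, with log2 fold changes from -0.59 to 0.59 and a median of -0.06. Genotypes did not overlap for 20 of the 126, or 15.9%, near the 16.7% of all genes, 9 with Dnmt1KO higher and 11 lower. Among the 8 genes of prenylation and extraction, Gdi2, which extracts Rab proteins from membranes, was at 549 and 568 CPM in Dnmt1fl/fl and at 750 and 584 CPM in Dnmt1KO, and Rabac1 at 108 and 125 against 173 and 113. Of 34 exchange factors, which load GTP, 3 had Dnmt1KO higher and 1 lower without overlap. The latter was Rin2, a Rab5 exchange factor, at 263 and 218 CPM against 200 and 201. Dennd4c, a Rab10 exchange factor, was at 295 and 253 CPM in Dnmt1fl/fl and at 134 and 401 CPM in Dnmt1KO.

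Of 36 GTPase-activating proteins, which end the active state, 4 were higher and 3 lower in Dnmt1KO without overlap, together 19.4%, near the 16.7% of all genes. The 2 most abundant, Tbc1d20 for Rab1 and Tbc1d2b, were at 162 and 175 against 218 and 164 CPM and at 155 and 146 against 105 and 159 CPM. None of the 12 early endosome effectors separated the genotypes. Eea1, the Rab5 tether, was at 103 and 86.0 against 74.3 and 96.3 CPM, and Ankfy1 at 149 and 158 against 129 and 158 CPM. Of 10 recycling effectors the most abundant were Myo5a, a Rab11-linked motor, at 462 and 304 against 330 and 484 CPM, and Rab11fip5 at 277 and 232 against 200 and 288 CPM. Of 12 late endosome effectors 1 was higher and 1 lower in Dnmt1KO without overlap, together the same share as the 16.7% of all genes. The lower one, Vps35, the retromer subunit that binds Rab7, was at 277 and 278 CPM in Dnmt1fl/fl and at 229 and 250 CPM in Dnmt1KO. Rilpl2 was at 249 and 286 against 527 and 214 CPM. The 7 secretory effectors were low, led by Unc13d, the Rab27 partner of granule priming, at 36.7 and 43.7 against 36.9 and 42.7 CPM, and Optn at 20.2 and 14.4 against 21.5 and 15.6 CPM. Of 7 ER and Golgi effectors 3 were lower in Dnmt1KO without overlap, where 8.56% of all genes were, with unadjusted edgeR p of at least 0.511 in this list, while the 2 most abundant, Uso1 at 84.0 to 101 and Golga2 at 70.9 to 90.4 CPM, overlapped.

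Some Rab counts are uncertain because the genes share sequence with others. More than 10% of the 100-base stretches of the longest transcript occurred in another gene's transcripts for 9 members. For Rab4b the share was 92.8%, with Gm21983, for Rab43 90.3%, with Gm45140, and for Rab2b 67.9%, with Gm43766. Rab7 shared 12.7%, most of it with pseudogene Rab7-ps1, and Rab11b 11%, most of it with Rab11b-ps2. Rab6a shared 19.6% with Mrpl48 and Rab33b 17.4%, most of it with Gm38160, and Rab20 a similar part with E230013L22Rik. How reads that match several genes were divided is not given in the sources used here.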

How the data were processed

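RNA was sequenced from 2 Dnmt1fl/fl and 2 Dnmt1KO samples of peritoneal macrophages. Per the labels and the study's methods, paired-end reads were aligned to mm10 with HISAT2 2.0.5 and counted per gene with featureCounts 1.5.0-p3. The authors deposited estimated counts, not normalized, of which 72.6% to 76.4% per sample are whole numbers. The annotation, the strand setting and the origin of the fractional values are not given in the sources used here. A shorter deposited table repeats part of the rows and was not used.

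Values were rounded to integers, kept by filterByExpr (12542 of 13834 genes), scaled with TMM and compared with the two-sided quasi-likelihood test of edgeR 4.0.16 (R 4.3.3), with Benjamini-Hochberg adjustment over all genes tested. Each standard error is the fold change over the root of its F statistic. Dispersion was 0.0837 (coefficient of variation 28.9%). Scripts were tested on simulated data. As alternatives the data were refitted with DESeq2 1.42.0, with voom in limma 3.58.1, without TMM, with other filters, without each sample, with a block by replicate number and with a transcript length correction (loess, span 0.5). Transcript lengths, positions and shared 100-base stretches are from GENCODE M21 (52 of 52 members matched), and promoters from RefSeq on GRCm38.p6. Genes named are the 3 most abundant of each class, those with non-overlapping genotypes, the Rab3, Rab5, Rab7, Rab11 and Rab27 paralogues and the 2 most abundant of each partner list. Other members, Rab44 and Rab20 among them, and the letters searched in promoters were chosen after values were seen. The members and lists were chosen with earlier results of these data known.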

Additional observations from a re-analysis of the deposited data

How the results depend on the processing

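With 2 samples per genotype, edgeR, DESeq2 and limma-voom called 0 Rab genes, and standard errors of 0.21 to 0.85 on the log2 scale leave differences of the size seen here unresolved. Over all genes an adjusted p under 0.05 was reached by 1 gene with DESeq2 and by 0 to 674 in fits that left out 1 sample, the highest without Dnmt1KO replicate 2. Among Rab genes those fits gave 0 to 1 by the adjusted p (the 1 being Rab44), 0 to 11 by the unadjusted p and 20 to 38 with non-overlapping genotypes. For the partner lists the unadjusted p was reached without 1 sample by 0 to 4 genes of prenylation and extraction, 0 to 13 exchange factors, 0 to 8 GTPase-activating proteins, 0 to 4 early endosome, 0 to 1 recycling and 0 to 5 late endosome effectors. Each highest count is from the fit without Dnmt1KO replicate 2, in which 27.3% of all genes reached it. Non-overlap was otherwise found in 8 to 11 members, of 48 tested (52 without the filter, 45 under a minimum of 10 counts per library), and in 16.5% to 18.6% of all genes. Replicate numbers are shared by the genotypes, but deviations of same-numbered samples correlated at -0.35, so the numbers were not taken to pair the samples. With the replicate block 0 Rab genes passed by either p and 34 of all genes by the unadjusted p. A crossed pairing, chosen after seeing the data, gave 3 genes by the adjusted p and 1 Rab gene, Rab44, by the unadjusted p, which 2.37% of all genes then reached.

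Log2 fold changes near 0 changed sign. Without TMM, which moved the median of all genes by -0.06, Rab10 was at -0.04, Rab1a at -0.02 and Rab5a at -0.05. With the length correction, which moved it by 0.05, Rab14 was at 0.06, Rab23 at 0.05, Rab5b at 0.01 and Rab7b at 0.03, and with the length correction and the replicate block these were 0.06, 0.07, 0.00 and 0.02. Leaving out 1 sample gave ranges across 0 of -0.02 to 0.08 for Rab10, -0.15 to 0.58 for Rab11a, -0.11 to 0.02 for Rab14, -0.22 to 0.32 for Rab1a, -0.02 to 0.34 for Rab1b, -0.25 to 0.22 for Rab23, -0.37 to 0.15 for Rab27a, -0.14 to 0.36 for Rab28, -0.20 to 0.04 for Rab32, -0.11 to 0.28 for Rab43, -0.07 to 0.11 for Rab5a, -0.26 to 0.19 for Rab5b, -0.03 to 0.21 for Rab5c, -0.16 to 0.52 for Rab7, -0.24 to 0.11 for Rab7b and -0.10 to 0.49 for Rab8a. For the other 11 of the 27 Rab genes chosen by the naming rule these fits did not change the sign. Rab20, outside that rule, was at -0.59 without Dnmt1KO replicate 1 and at 0.48 without Dnmt1KO replicate 2. In counts per kilobase the recycling, late endosome, secretory and other classes held 12%, 30.9%, 10.9% and 1.26% of Rab expression on average, and with the alternative classes recycling held 28.1% and secretory 2.04%. The class shares move by construction, and the causes of the other shifts were not tested.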
